A study of Homo sapiens with 2 samples.

Results

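The Notch receptors NOTCH1, NOTCH2, NOTCH3 and NOTCH4, the ligands JAG1, JAG2, DLL1 and DLL4 and the first effectors HES1 and HEY1 were examined in RWPE-1, a human cell line of noncancerous prostate epithelium, after transfection with pre-miR-424, a synthetic precursor of the microRNA miR-424. Probes of these 10 genes, out of 19740 genes with a named probe, were found by the RefSeq accession that the array design gives each probe. They had 12 probes of 42405, printed as 38 of the 58717 spots of each array. Each gene had at least 1 probe, and NOTCH1 and NOTCH2 had 2 each.

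One group of cells received 30 nM of pre-miR-424 and the other the same amount of a precursor named Negative control #1, and both were grown in the same serum-free keratinocyte medium with supplements. Amplified RNA of both groups was hybridised together to 2 two-colour Agilent arrays. On the array with normal labelling pre-miR-424 RNA was labelled with Cy5 and control RNA with Cy3, and on the dye swap the dyes were exchanged. The labels call the arrays technical replicates, so together they stand for 1 replicate and no p-value is given. Agreement between the arrays therefore covers labelling and hybridisation only. RWPE-1 is a single line, and the labels give no time after transfection.

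Notch is a signalling pathway between touching cells. Ligands of the Jagged and Delta families on one cell bind a Notch receptor on its neighbour, whereupon the receptor is cut by ADAM proteases and γ-secretase, and its intracellular part enters the nucleus, joins the DNA-binding protein RBPJ and switches on genes, of which HES1 and HEY1 are among the first known. In the prostate and in other stratified or glandular epithelia the pathway is known for its part in the balance between basal cell renewal and differentiation.

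MicroRNAs lower the RNA or protein of transcripts that pair with their seed, bases 2 to 8. The sequence of the transfected microRNA is shown because it defines the treatment, with the seed in capitals and both arms given, as the name of the precursor does not say which arm acts. In the RefSeq sequences (GRCh38.p14) miR-424-5p lies at chrX:134546680-134546701 on the minus strand. Of 2370 mature microRNAs 7, itself included, carried its seed, and these are listed first. The neighbour miR-503-5p, at chrX:134546371-134546393, differs from this seed at base 8 only.
hsa-miR-424-5p: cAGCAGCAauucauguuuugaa
hsa-miR-15a-5p: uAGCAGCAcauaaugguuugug
hsa-miR-15b-5p: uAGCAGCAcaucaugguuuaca
hsa-miR-16-5p: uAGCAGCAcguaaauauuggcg
hsa-miR-195-5p: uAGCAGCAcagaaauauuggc
hsa-miR-497-5p: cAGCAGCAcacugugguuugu
hsa-miR-6838-5p: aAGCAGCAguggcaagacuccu
hsa-miR-503-5p: uAGCAGCGggaacaguucugcag
hsa-miR-424-3p: cAAAACGUgaggcgcugcuau
Target sites in the Notch transcripts were not analysed here.

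Median spot signals lay between 165 and 314 in the 4 channels, and between 66.8% and 70.1% of spots were well above background. Probes well above background in all 4 channels and without an outlier spot were taken as measured. This held for 25664 probes, which represented 13812 genes. Ratios are log2 of pre-miR-424 over control, with the sign of the swap turned. For each probe, the ratio on normal labelling minus that on the swap was taken and divided by 2. Over the measured probes the SD of this quantity was 0.17, so 2 such SD came to 0.33. It equals the mean of the unturned ratios of Cy5 over Cy3, so it holds dye effects as well as noise. A constant dye effect of a probe cancels in the mean of both arrays. The value of 0.33 is therefore a yardstick and not the error of that mean. All 6 basal markers (KRT5, KRT14, KRT15, TP63, ITGB4 and LAMB3) and all 5 general epithelial markers were measured, beside 13812 of all 19740 genes. Also measured were 1 of 6 endothelial markers, 2 of 6 luminal prostate markers, 5 of 8 markers of fibroblasts and smooth muscle and 3 of 5 of blood cells, so a signal above background did not by itself set the cell types apart. KLK3, which defines luminal prostate cells, was well above background in no channel.

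Of the 12 Notch probes, 10 were measured and represented 8 genes, and the probes of DLL4 and HEY1 were too dim. No measured probe passed 1.5-fold (a log2 ratio of 0.58 in size) in the same direction on both arrays, a threshold that 0.849% of all measured probes passed, and none passed 2-fold, which 0.14% of them did. On both arrays 3 probes were lower with pre-miR-424 (NOTCH2, NOTCH3 and JAG2) and 3 were higher (NOTCH4, DLL1 and 1 probe of NOTCH1), against 26.4% and 25% of all measured probes, so the shares were near the background. With each array centred on its median in place of loess, JAG2 and this NOTCH1 probe had opposite signs. The other 4 probes had opposite signs on the arrays as reported. In RNA of whole cultures, fewer cells of a type and less RNA per cell cannot be told apart. Over the 8 measured genes, each by its brightest probe, the median ratio was 0.01, with −0.11 on normal labelling and 0.13 on the swap, beside a median of −0.00417 over all measured genes.

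**Figure D1:**
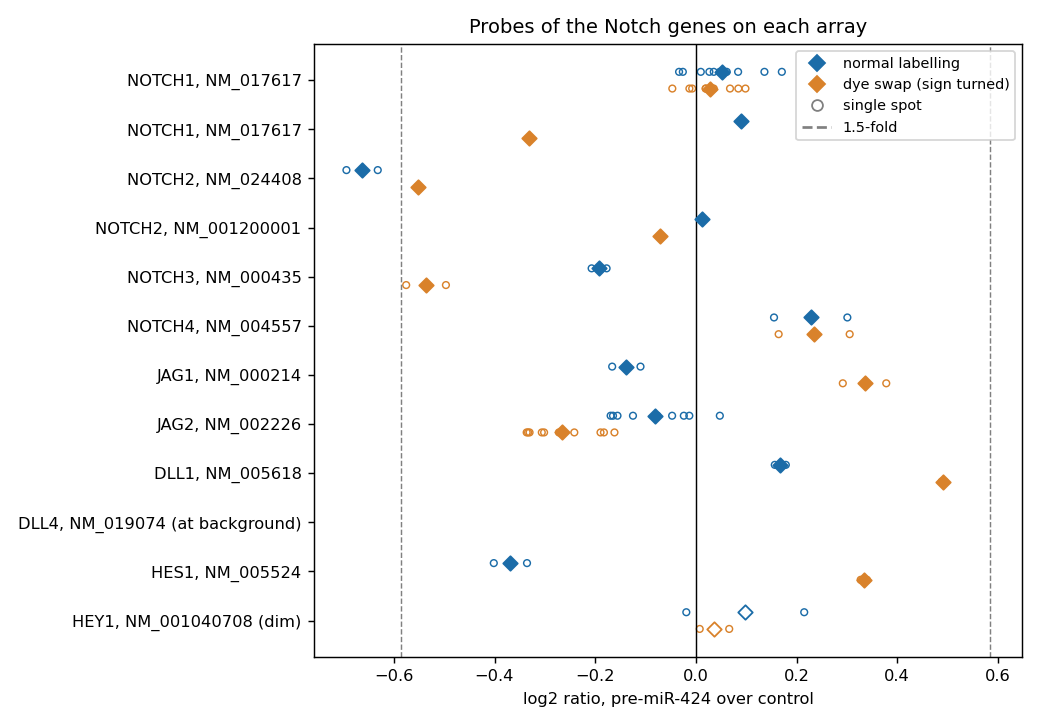
Log2 ratio of pre-miR-424 over control (horizontal axis) for each of the 12 probes of the Notch genes, with single spots as circles and array means as diamonds, in blue for normal labelling and orange for the dye swap. Open diamonds mark the dim probe of HEY1, the row of DLL4 is empty because it lay at background, and dashed lines mark 1.5-fold. The NOTCH2 probe of NM_024408 lies lowest on both arrays, at −0.66 and −0.55, and the HES1 values lie on opposite sides of 0, at −0.37 and 0.33.

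Among the receptors, NOTCH2 gave the largest difference of all 10 measured Notch probes. Its probe of NM_024408, the accession of the full-length receptor transcript, had normalized log2 levels of 12.62 with pre-miR-424 and 13.28 with control on normal labelling. On the swap the levels were 12.68 and 13.23. Both levels with pre-miR-424 lay below both control levels, a separation in this direction that 20.8% of all measured probes showed. The ratios were −0.66 and −0.55 (mean −0.61, SD 0.079, n = 2 arrays), or 1.52-fold lower with pre-miR-424 by the mean. A mean as low was found for 0.717% of the measured probes, a share that belongs to the lowest of the 10 Notch probes. The swap missed the threshold of 1.5-fold narrowly, whereas the scanner software's own log ratios, −0.61 and −0.62, passed it on both arrays.

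The spots of this probe differed little. On normal labelling they gave −0.69 and −0.63, and on the swap both gave −0.55. The unnormalized spot signals were lower with pre-miR-424 in each dye. In Cy5 the probe averaged 7981 when the dye marked RNA of cells with pre-miR-424 and 13631 when it marked control RNA. In Cy3 it averaged 4553 and 7996. Each dye was compared across the arrays without normalization, and the other NOTCH2 probe, described next, was lower in each dye too. That probe gave 2859 and 3210.5 in Cy5 and 1557.5 and 1878 in Cy3, a smaller difference. The NOTCH1 probe with 10 spots, whose ratio was close to 0, was lower in each dye as well. It gave 2751 and 3047 in Cy5 and 1584 and 1762 in Cy3. The dimmer probes of DLL1 and NOTCH4 were higher in each dye. The direction of the unnormalized signals therefore did not set NOTCH2 apart from NOTCH1.

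The second NOTCH2 probe, of the accession NM_001200001, a shorter transcript of the gene, did not share the difference. Its levels were 11.18 with pre-miR-424 and 11.17 with control on normal labelling, and 11.10 and 11.17 on the swap, so the groups overlapped. Its ratios were 0.01 and −0.07 (mean −0.03, SD 0.058), and it was printed as 1 spot. The ratio of the probe of NM_024408 minus that of this probe was −0.68 on normal labelling and −0.48 on the swap. This disagreement was known when the probes were chosen and is given as a description. Probe sequences were not analysed here, so which transcripts each probe binds was not tested, and the value of NOTCH2 as a gene depends on the probe.

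NOTCH2NLA, a gene that arose by partial duplication of NOTCH2 and shares much of its beginning, had 2 measured probes, neither with 1 sign on both arrays. The brighter gave −0.21 on normal labelling and 0.23 on the swap, and the dimmer −0.23 and 0.11. The other copies of this family had no probe by accession. Whether RNA of the copies binds either NOTCH2 probe was not tested.

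NOTCH3, a receptor best known from vascular smooth muscle but also found in basal epithelium, was lower with pre-miR-424 on both arrays, by unequal amounts. Its levels were 8.24 with pre-miR-424 and 8.44 with control on normal labelling, and 8.13 and 8.67 on the swap, without overlap between the groups. The ratios were −0.19 and −0.54 (mean −0.36, SD 0.24). The mean exceeded 0.33 in size, which is 2 SD of the difference between the arrays divided by 2. Among the measured Notch probes only the mean of NOTCH2 by NM_024408 did so too. A mean as low was found for 3.04% of all measured probes. The spots of each array lay close together, between −0.21 and −0.18 on normal labelling and between −0.58 and −0.50 on the swap, so the spread was between the arrays and not between spots. The software's log ratios gave a mean of −0.50.

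NOTCH1, the receptor that promotes differentiation in keratinocytes, was close to 0 by its probe with 10 spots. The levels were 11.11 with pre-miR-424 and 11.06 with control on normal labelling and 11.11 and 11.08 on the swap. The ratios were 0.05 and 0.03 (mean 0.04, SD 0.016), that is 1.03-fold. The spots ranged from −0.03 to 0.17 on normal labelling (median 0.04) and from −0.05 to 0.10 on the swap (median 0.02), so single spots fell on both sides of 0. With each array centred on its median in place of loess the mean became −0.02.

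The other NOTCH1 probe, of the same accession but printed as 1 spot, gave 0.09 on normal labelling and −0.33 on the swap. Its levels with pre-miR-424 were 10.28 and 9.88, and the control levels of 10.19 and 10.22 lay between them. Its mean of −0.12 was smaller than its SD of 0.30, and the probes of NOTCH1 differed by less than this spread.

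NOTCH4, a receptor known mainly from endothelium, was measured close to background. Its spot signals were 89 in Cy3 over a background of 27.5 and 166.5 in Cy5 over 70 on normal labelling, and 103 over 26.5 and 158 over 69.5 on the swap. The levels were 7.07 with pre-miR-424 and 6.84 with control on the first array and 7.16 and 6.92 on the second, so the groups did not overlap. The ratios were 0.23 and 0.24 (mean 0.23, SD 0.0049), closer together than those of any other measured Notch probe. The spots of an array were further apart, from 0.16 to 0.30 and from 0.16 to 0.31, and the software's own error of a single log2 ratio was 0.31 on both arrays. The mean was 0.24 without background correction, 0.32 with an offset of 16 and 0.52 with the software's log ratios, which differ in normalization too. Endothelial markers other than CDH5 were not measured in all channels, and their part in the value of NOTCH4 was not tested.

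Among the ligands, DLL1, a Delta ligand, had higher levels in the cells with pre-miR-424. They were 9.02 with pre-miR-424 and 8.85 with control on normal labelling and 9.18 and 8.69 on the swap, without overlap, a separation in this direction that 20% of all measured probes showed. The ratios were 0.17 and 0.49 (mean 0.33, SD 0.23), or 1.26-fold. The spots agreed within each array, from 0.16 to 0.18 and at 0.49, so that again the arrays and not the spots set the spread. The mean lay just within 2 SD of the difference between the arrays divided by 2 (0.33). A mean as high was found for 3.64% of all measured probes.

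JAG2, a Jagged ligand, was lower on both arrays, with levels of 11.13 with pre-miR-424 against 11.21 on normal labelling and 11.06 against 11.33 on the swap. The ratios were −0.08 and −0.27 (mean −0.17, SD 0.13). It was printed as 10 spots, which ranged from −0.17 to 0.05 on normal labelling and from −0.34 to −0.16 on the swap. All spots of the swap were therefore below 0, while those of the other array fell on both sides of it. Under median centring, which put the median over the measured probes at 0.10 on normal labelling and −0.18 on the swap, JAG2 gave 0.06 and −0.53.

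JAG1, the other Jagged ligand, had opposite signs on the arrays. Its levels were 11.27 with pre-miR-424 and 11.41 with control on normal labelling and 11.60 and 11.26 on the swap, and the groups overlapped. The ratios were −0.14 and 0.34 (mean 0.10, SD 0.33). Its dye component, which is the mean of the unturned ratios of Cy5 over Cy3, was −0.24, a size reached by 10.6% of all measured probes. Under median centring both ratios were above 0, at 0.01 and 0.06.

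DLL4, a Delta ligand of endothelium and sprouting vessels, was not well above background at any spot in any channel, and no ratio is given for it. PECAM1, KDR, TEK and CLDN5, markers of endothelium, were likewise well above background in no channel. The other markers of that list were above it, VWF in 3 channels and CDH5 in all 4.

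HES1, a transcriptional repressor and the effector most often read as a sign of Notch activity, also had opposite signs on the arrays. Its levels were 12.56 with pre-miR-424 and 12.93 with control on normal labelling, and 13.06 and 12.73 on the swap. The ratios were −0.37 and 0.33, with a mean of −0.02 that was far smaller than the SD of 0.50. Both spots of each array repeated this, at −0.40 and −0.34 on normal labelling and at 0.33 and 0.34 on the swap. The dye component, which restates the same difference between the arrays, was −0.35, a size reached by 3.08% of all measured probes. That the HES1 arrays disagree was known when the probes were chosen, so this share is given as a description. The signs were opposite under each of the 5 other ways of processing too, but under median centring the ratios were only −0.17 and 0.01, with a mean of −0.08. No direction can be given for HES1 from these arrays.

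HES1 is known as a direct target of RBPJ, and its promoter is printed to show the letters that RBPJ is known to prefer. The motif TGGGAA, searched on both strands and with overlaps allowed, is in capitals. In this window, chr3:194135898-194136197 (GRCh38.p14, plus strand, RefSeq), which runs from 250 bases before to 50 bases after the gene's start, it occurred at 2 places, beginning 84 and 70 bases before the start, and the first was part of the longer GTGGGAA. These matches describe the sequence and not binding in these cells.
HES1 promoter: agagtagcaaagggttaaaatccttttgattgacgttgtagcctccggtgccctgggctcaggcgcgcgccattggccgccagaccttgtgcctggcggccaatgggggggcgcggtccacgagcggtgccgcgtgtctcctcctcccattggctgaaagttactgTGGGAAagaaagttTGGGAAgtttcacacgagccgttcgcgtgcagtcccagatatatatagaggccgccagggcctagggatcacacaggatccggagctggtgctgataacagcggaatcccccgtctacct
Among all 35116 promoters of this length, 24% held TGGGAA and 6.25% held GTGGGAA on either strand. Of the 8 Notch genes with a promoter in the table, HES1 alone held TGGGAA in this window, and DLL1 and HEY1 were not searched.

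HEY1, a related repressor, was not measured by the rule used here. Both of its spots were well above background in 3 channels, but only 1 of 2 in Cy3 of the swap, which marked the pre-miR-424 RNA. Its levels were 6.89 with pre-miR-424 and 6.79 with control on normal labelling and 6.79 and 6.76 on the swap. The ratios near background were 0.10 and 0.04. The spots of the first array ranged from −0.02 to 0.22, wider than this difference.

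The levels of the groups did not overlap for 6 of the 10 measured probes, of which 3 were lower (NOTCH2, NOTCH3 and JAG2, against 20.8% of all measured probes) and 3 higher (NOTCH1 with 10 spots, NOTCH4 and DLL1, against 20%). The levels of the other 4 probes overlapped, which follows from their opposite signs on the arrays. Over all measured probes, 51.4% had the same sign on both arrays, and 0.549% passed 1.5-fold in the unturned ratios, that is with the dye, in comparison with 0.849% that passed it with the treatment.

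**Figure D2:**
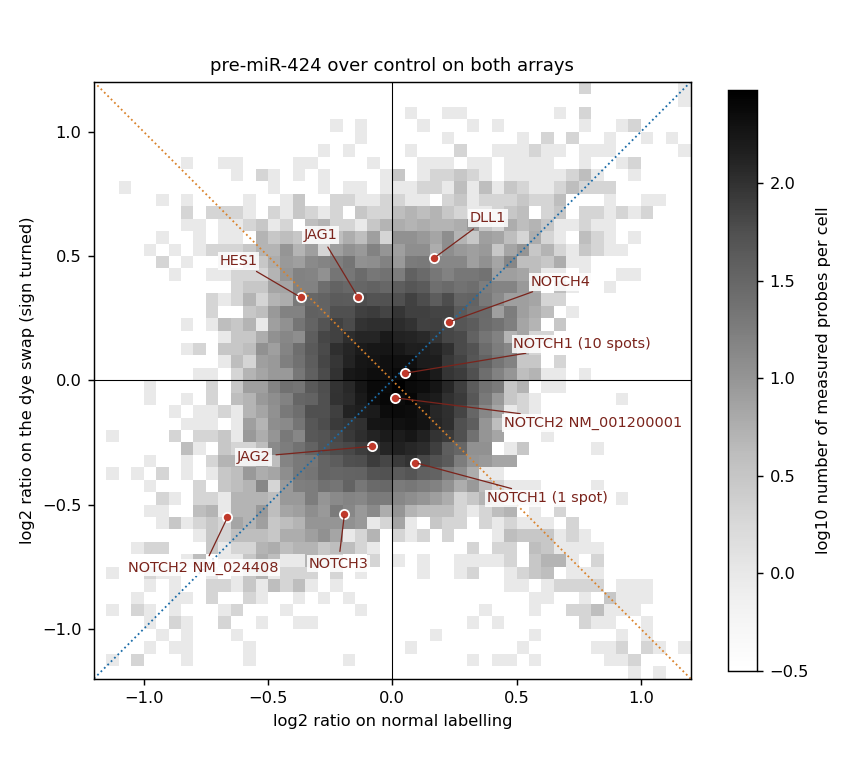
Log2 ratio of pre-miR-424 over control on normal labelling (horizontal axis) and on the dye swap (vertical axis), with the 10 measured Notch probes in red over the density of all measured probes in grey, within 1.2 of 0 on each axis. Equal ratios lie on the rising dotted line, near which NOTCH4 stands at 0.23 and 0.24, and ratios of equal size and opposite sign on the falling one, near which HES1 stands at −0.37 and 0.33.

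Ratios of the receptors were also set beside each other within each array. On normal labelling their order from the lowest was NOTCH2 (−0.66), NOTCH3 (−0.19), NOTCH1 (0.05) and NOTCH4 (0.23), and on the swap NOTCH2 (−0.55) and NOTCH3 (−0.54) were level, followed by NOTCH1 (0.03) and NOTCH4 (0.24). This order holds for the brightest probe of each gene, and NOTCH2 would stand beside NOTCH1 by its other probe. The 4 receptors had a median of −0.07 on normal labelling and −0.25 on the swap. The 3 measured ligands had −0.08 and 0.34, so the medians were close on normal labelling and differed on the swap. Single genes of both groups overlapped there, with JAG2 at −0.27 between NOTCH3 and NOTCH1.

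The processing moved the sizes of NOTCH4, NOTCH3 and DLL1 most. Over 6 ways of processing, the mean ratio of NOTCH2 by NM_024408 ranged from −0.67 to −0.61, that of NOTCH3 from −0.50 to −0.36, that of DLL1 from 0.28 to 0.41 and that of NOTCH4 from 0.23 to 0.52. NOTCH2, NOTCH3, NOTCH4 and DLL1 kept their sign on both arrays in all of them.

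**Figure D3:**
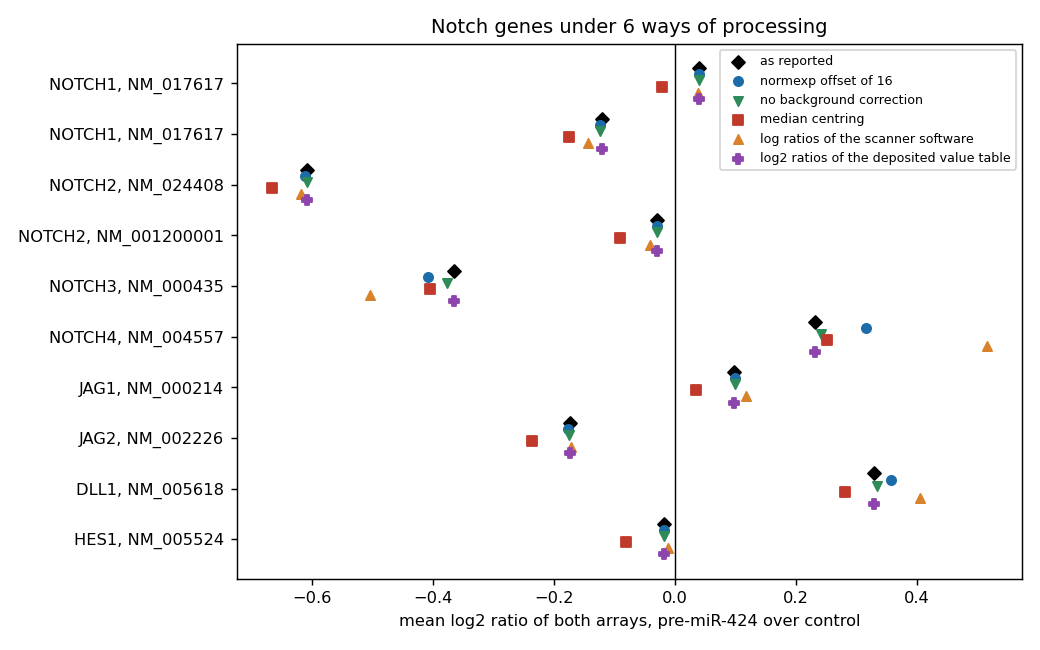
Mean log2 ratio of both arrays (horizontal axis) for the 10 measured probes of the Notch genes under 6 ways of processing, 1 symbol each. NOTCH4 spreads most, from 0.23 to 0.52, and the NOTCH2 probe of NM_024408 stays between −0.67 and −0.61.

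The rest of the pathway was described by 69 further genes in 9 groups by role, of which 61 were measured, each by its brightest probe. Of these, 15 had higher and 13 lower ratios on both arrays, or 24.6% and 21.3%, near the 26.8% and 26.7% of all measured genes. The groups below hold few measured genes each, so their counts are to be read beside these shares. Past 1.5-fold on both arrays there was 1 gene, 1.64% of the 61 against 1.01% of all measured genes. The median ratio of the 61 was −0.000606.

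That gene was DTX3L of the receptor turnover group, a Deltex family ubiquitin ligase that is also known as interferon-inducible, with ratios of 0.97 and 1.05 (mean 1.01, SD 0.057). In the same group of 9 measured genes, FBXW7, the ubiquitin ligase adaptor that marks the nuclear Notch fragment for decay, had the lowest mean, with −0.34 and −0.27. Here 2 genes were higher and 3 lower on both arrays, and the median was −0.03.

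Of the 5 genes that attach sugars to Notch receptors, 2 were lower and none higher on both arrays, with a median of −0.14. LFNG (lunatic fringe), which extends O-fucose on the receptors and thereby shifts their response between Delta and Jagged ligands, gave −0.61 and −0.58 (mean −0.60, SD 0.027), just short of 1.5-fold on the swap. It passed that threshold on both arrays with an offset of 16, without background correction and with the software's ratios. Its other probe, of the accession NM_001040168, gave −0.11 and −0.30. POFUT1, which adds the O-fucose, gave −0.54 and −0.31.

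Of the 9 genes of receptor cleavage, 2 were higher and 3 lower on both arrays, with a median of −0.03. ADAM17, a protease of the ADAM family, gave 0.39 and 0.13. APH1B, a subunit of γ-secretase, gave −0.31 and −0.49. Among the further ligands DLK2, a Delta-like protein that can restrain Notch, was lower by 0.58 and 0.44 on the log2 scale, and both other members of this group had opposite signs on the arrays. Of the 4 ubiquitin ligases that act on ligands, NEURL1B gave 0.55 and 0.46 by its brightest probe but −0.03 and −0.07 by its other, while MIB1, which drives ligand endocytosis, gave −0.23 and −0.17.

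In the nuclear complex, 3 of 8 measured genes were higher and 1 lower on both arrays, with a median of 0.16. RBPJ itself gave 0.24 and 0.33 (mean 0.29, SD 0.068), and the coactivator EP300 gave −0.23 and −0.05. The 12 corepressors had a median of 0.03, and those with the most extreme means of 1 sign were HDAC1, with 0.33 and 0.09, and SPEN, with −0.12 and −0.04. All means of these named genes lay within 2 SD of the difference between the arrays divided by 2.

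Other effectors and targets gave no common direction. Of 7 measured genes among the further HES and HEY effectors and the feedback inhibitor NRARP, 3 were higher and none lower on both arrays. HES4 gave 0.63 and 0.16, but 0.91 and −0.22 under median centring, and HES7 gave 0.01 and 0.52. The SD between the arrays was 0.33 for HES4 and 0.36 for HES7. Among 4 measured genes of the other known targets, IVL (involucrin), a marker of squamous differentiation, gave 0.18 on both arrays, and CDKN1A, the cell cycle inhibitor p21, gave −0.16 and −0.35.

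**Figure D4:**
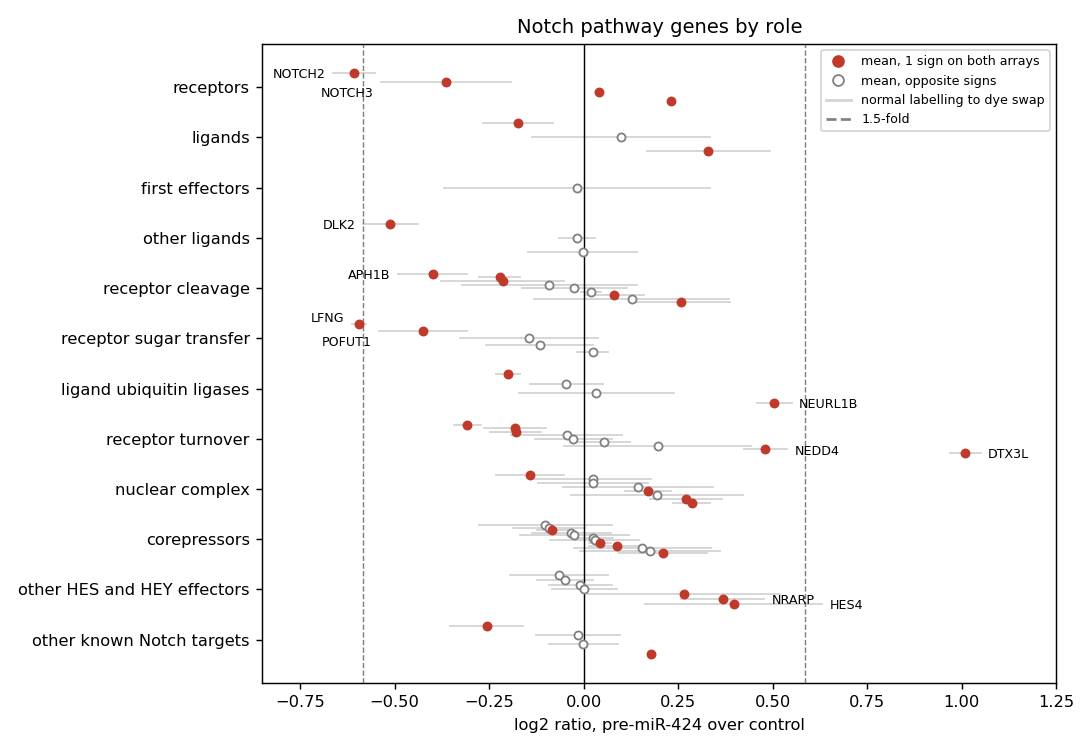
Log2 ratios of pre-miR-424 over control (horizontal axis) for the measured Notch pathway genes by role, each by its brightest probe. Points are means of both arrays, filled where the sign was the same on both, grey lines join the arrays, and dashed lines mark 1.5-fold. DTX3L at 1.01 stands outside the dashed lines on both arrays, and NOTCH2 at −0.61 and LFNG at −0.60 straddle the lower line.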

How the data were processed

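RNA of RWPE-1 cells with pre-miR-424 or control was measured on 2 two-colour arrays, and groups and dyes were taken from the labels. The deposited scanner files, made by the authors with Agilent Feature Extraction 10.7.3.1, give the median intensity of each spot and of its local background in Cy3 and Cy5, not normalized, on a design built on hg19. Beside these intensities the authors deposited the software's own log10 ratio (Cy5 over Cy3) with its error, which were converted to log2 here. A second deposited table holds log2 ratios, for which the submitters' processing notes name limma, while the steps are not given in the sources used here. Its columns correlated with the ratios computed here at 0.991 and 0.988 over 42405 probes, so both columns give Cy5 over Cy3, the swap included, and their medians after turning were 0.024 and −0.036.

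Background was corrected on all spots by normexp with an offset of 50 in limma 3.58.1 (R 4.3.3), control spots were dropped, and loess was run within each array. The offset draws ratios of dim probes towards 0. Repeated spots were averaged per probe, with the sign of the swap turned. Levels were scaled between arrays by Aquantile, which leaves ratios as they are. A probe with several spots had to be well above background at most of them. Accessions were matched without versions to a RefSeq gene table (GRCh38.p14), used for names only, which named 25771 probes. For each gene the brightest measured probe was used. Python 3.11.15 with pandas 2.3.3 was used for summaries, and the steps were tested on simulated data. No test was made, since both arrays are 1 replicate, and the spread between them may be purely technical.

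The genes, lists and thresholds were chosen with earlier results of these data known. Named were all 10 Notch genes with every probe, in each role group the gene with the highest and the one with the lowest mean of 1 sign on both arrays, and genes past 1.5-fold. Tried as alternatives were median centring, an offset of 16 or no correction of background, the ratios of the software and of the authors, a weaker filter or none on dim probes, use of outlier spots, single arrays, and means over all probes of a gene.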

Additional observations from a re-analysis of the deposited data

How the results depend on the processing

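The count of Notch probes past 1.5-fold on both arrays was 0 as reported and 1 (NOTCH2) with the software's log ratios, and each array alone gave from 0 to 1, the 1 being NOTCH2 on normal labelling. No Notch probe passed 2-fold under any alternative run. The count of other pathway genes was 1 as reported and 2 with an offset of 16, without background correction and with the software's ratios, as LFNG joined DTX3L, and each array alone gave from 1 to 3, with LFNG and HES4 added on normal labelling. The cause was not tested. The median of the Notch genes lay between −0.11 and 0.13 for single arrays and moved to −0.05 under median centring, which put the median over the measured probes at 0.10 and −0.18. Over the 5 other ways of processing both arrays, the mean changed sign for 1 of the 10 measured Notch probes, that of NOTCH1 with 10 spots (−0.02 under median centring). Under median centring HES1 gave −0.17 and 0.01, JAG1 gave 0.01 and 0.06, and JAG2 gave 0.06 and −0.53. Signal over background limits NOTCH4, HEY1 and DLL4. All ratios were formed inside an array, so a block for the array adds nothing.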

Other observations

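The choice of the genes named here was made with their values in view. HES6, a HES family protein that counteracts HES1, had 4 measured probes of 1 accession. The brightest gave 0.07 and −0.09 on the arrays, whereas the probe with 2 spots gave 0.42 and 0.46 and the others 0.12 and 0.06, and 0.14 and 0.05. NRARP, a feedback inhibitor that Notch induces, gave 0.48 and 0.26 by its brighter probe and 0.02 and −0.11 by the other. NEDD4, a ubiquitin ligase, gave 0.42 and 0.54 (mean 0.48), and among the measured pathway genes outside the 10 only NEURL1B (0.50) and DTX3L (1.01) had higher means.

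Some markers of the line itself differed between the arrays. KRT5, the defining keratin of basal cells, gave 0.09 on normal labelling and −1.09 on the swap. KRT18 gave 0.73 and −0.55 by its brightest probe, printed as 1 spot, and 0.21 and −0.06 by its other. KRT15 was lower on both arrays, with −0.22 and −0.54, and LAMB3 was higher on both, with 0.22 and 0.25. Of the 6 basal markers, 1 was higher and 2 were lower on both arrays. The other 3 had opposite signs, among them TP63 with −0.12 and 0.19. Of the 5 general epithelial markers, none was higher and 1 was lower on both arrays, and 4 had opposite signs. The part of these markers in the ratios of the Notch genes was not tested.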
